A study of Mus musculus with 20 samples.

Results

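The matrix metalloproteinases, the ADAMTS proteases and the tissue inhibitors of metalloproteinases were followed through 20 RNA-seq libraries of mouse pancreatic tumours. Members were taken by symbol, as every gene named Mmp, Adamts or Timp followed by its number, and levels played no part in the choice. The table held 46 such genes among 46983, of which 23 were Mmp genes, 19 Adamts genes and 4 Timp genes. A mean of at least 1 CPM (counts scaled to library size) in at least 1 of the 4 groups was reached by 33 of them (16 Mmp, 14 Adamts and 3 Timp). The other 13 stayed below it.

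Matrix metalloproteinases are zinc-dependent enzymes that cut collagens, elastin, fibronectin and other matrix proteins, and most are made as inactive precursors whose propeptide must be removed. ADAMTS proteases are secreted relatives with thrombospondin repeats, known for cutting the large proteoglycans and for trimming procollagens. TIMP proteins bind the active sites of matrix metalloproteinases and block them, and TIMP3 also inhibits ADAMTS proteases. In pancreatic tumours, which are rich in fibrous stroma, these genes are known to be used by cancer cells, fibroblasts and infiltrating myeloid cells alike.

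The tumours were KPC murine pancreatic cancer cells, cultured and then injected orthotopically into untreated C57BL/6 hosts that were IL33-/- (labelled IL33KO) or wild type (WT), and taken at 2 weeks. The cytokine IL-33 belongs to the interleukin-1 family and is released by damaged cells. The 4 groups, with 5 libraries each, were sorted IL33KO leukocytes, sorted WT leukocytes, bulk IL33KO tumour and bulk WT tumour, where sorted means CD45+ cells held on magnetic beads. The deletion was carried by the host, KPC cells were implanted in both genotypes, and the labels speak of KPC lines in the plural without saying which library had which. Ages and sexes of the hosts, and ties between libraries and mice or between sorted and bulk libraries, are not stated in the labels, so p-values measure the spread between libraries.

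Each library held 51.3 to 81.0 M gene counts (M, mega), and 3 counts corresponded to 0.0326 to 0.0686 CPM. Il33 itself was counted at 14.3 to 25.7 CPM in the sorted libraries labelled IL33KO, against 5.76 to 20.6 CPM in sorted WT libraries. In bulk tumour it had 37.0 to 56.3 CPM in libraries labelled IL33KO, against 53.6 to 66.7 CPM in WT libraries. Il33 was thus not lower in the sorted libraries labelled IL33KO, and the source of these counts was not tested. Counts over the whole gene do not show which exons were present or which cells they came from. IL33KO below therefore always means libraries labelled IL33KO. The leukocyte markers were high in the sort: the summed CPM of 6 pan-leukocyte genes was 5083 to 6824 in the 10 sorted libraries and 363 to 967 in the 10 bulk libraries, while 6 epithelial genes summed to 1016 to 2667 CPM in sorted libraries and 6121 to 8964 CPM in bulk libraries. The summed levels of acinar and endothelial markers were not lower in it. Acinar genes, which code for digestive enzymes of the pancreas, summed to 669.6 to 39630 CPM (median 2534) in sorted IL33KO and 605.7 to 4117 CPM (median 2667) in sorted WT libraries, against 24.3 to 1622 CPM (median 31.6) in bulk IL33KO and 37.5 to 8655 CPM (median 40.0) in bulk WT libraries. Endothelial genes summed to 172 to 231 CPM in sorted IL33KO and 149 to 222 CPM in sorted WT libraries, against 83.5 to 137 CPM in bulk IL33KO and 67.3 to 148 CPM in bulk WT libraries. Some libraries stood apart. Sorted IL33KO 3 had the highest sums of neutrophil markers (15850 CPM), immature neutrophil granule genes (19660 CPM) and pancreatic acinar genes (39630 CPM) of the sorted libraries. The highest acinar sums of the bulk libraries were those of bulk WT 5 and bulk IL33KO 3, against at most 156.8 CPM in the other bulk libraries. Skeletal muscle genes summed to 1813 CPM in bulk IL33KO 1, 900 CPM in bulk WT 5 and 499 CPM in bulk IL33KO 5, against at most 4.63 CPM elsewhere.

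Sorted leukocytes and bulk tumour differed in most members. The neutrophil collagenase Mmp8, the membrane-anchored Mmp25, gelatinase B (Mmp9), the macrophage elastase Mmp12, collagenase 3 (Mmp13) and Mmp19 were 3.10 to 19.6-fold higher in sorted leukocytes, whereas all 3 TIMPs above 1 CPM and 13 of the 16 ADAMTS genes tested were lower there. With edgeR's quasi-likelihood test over all 20 libraries, 34 of the 37 members tested had an adjusted p (Benjamini-Hochberg over all genes tested) under 0.05, 9 of them higher and 25 lower in sorted libraries. Most genes differed in this comparison: of the 18145 genes tested, 75.4% passed, 37.4% higher and 38% lower. The median log2 fold change (sorted over bulk) of the 37 members was -1.58, against 0.010 for all genes tested. Of these members, 6 passed the filter on low counts only through the bulk libraries, so the direction of their difference was built in. All 6 were lower: Mmp24, Adamts3, Adamts8, Adamts16, Adamts17 and Adamts19. The other 31 passed the filter in each compartment by itself, with 9 higher and 19 lower (for ADAMTS genes, 8 of 11 lower), where 6065 of 16035 such genes were higher and 6045 lower. The values of sorted and bulk libraries did not overlap for 18 members, 6 higher and 12 lower, against 36.4% of all genes tested (19.1% higher and 17.4% lower). Among IL33KO hosts alone 30 members passed, where 63% of all genes tested did, and among WT hosts alone 31 passed, where 68% did.

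**Figure D1:**
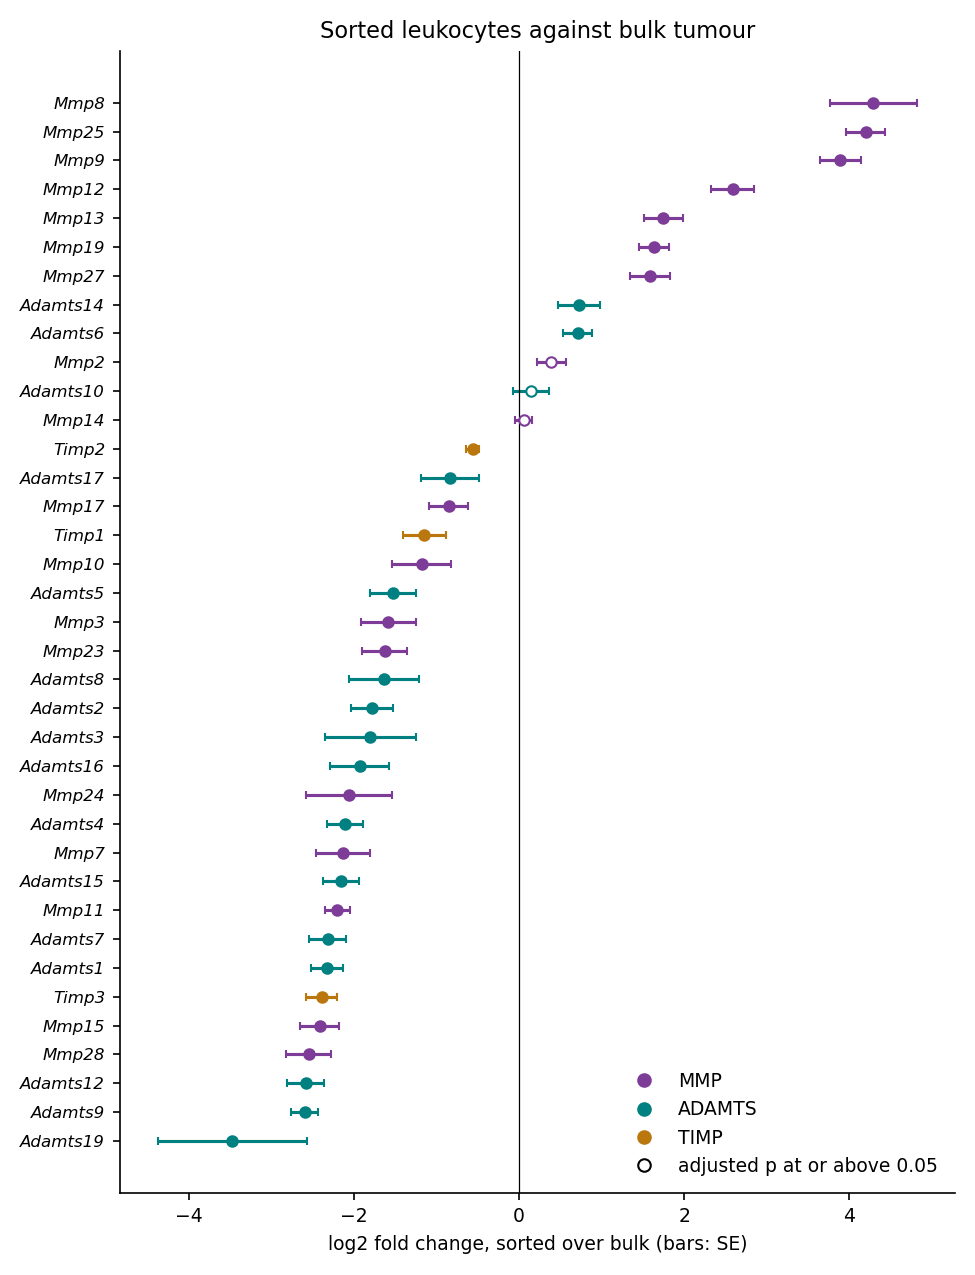
Log2 fold change of each of the 37 tested members, sorted over bulk (points; bars are 1 SE), ordered by size, with open points where the adjusted p was 0.05 or above. The right end holds 9 filled points of which 7 are Mmp genes, led by Mmp8 at 4.29 and Mmp25 at 4.20. The left end holds Adamts genes, Mmp28, Mmp15 and Timp3. Adamts19, farthest to the left at -3.47, passed the filter on low counts only through bulk libraries.

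Cell type markers differed between the compartments too. All 6 neutrophil markers (median log2 fold change 4.46), all 8 immature neutrophil granule genes (median 4.64) and all 9 macrophage markers (median 3.02) were higher in sorted libraries. All 9 fibroblast markers (median -2), all 6 epithelial markers (median -1.97) and all 6 mesothelial markers (median -2.46) were lower. Only 5 of the 6 mesothelial markers passed the filter on low counts in sorted libraries alone. The lower value of the remaining one was therefore built in. Of 6 endothelial markers 2 were higher and 4 lower (median -0.65), and of 6 acinar genes tested 3 were higher and none lower (median 2.85). All 5 T cell markers (median 2.84) and all 4 B cell markers (median 4.06) were higher. Of these genes only the acinar Amy2a1 was listed at 0 counts in whole groups (sorted WT and bulk IL33KO). Their part in the differences of single members was not tested. In such libraries fewer cells of a type and less RNA per cell cannot be told apart.

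Among the collagenases, which cut fibrillar collagen, Mmp8 differed most. Mmp8 (ENSMUSG00000005800.2) lies at chr9:7558456-7568485, plus strand, and Mmp13 (ENSMUSG00000050578.9) lies at chr9:7272514-7283331, plus strand (GRCm38, GENCODE M21). Values here and below are CPM per library in the order of replicates 1 to 5. Mmp8, stored in neutrophil granules, had 29.9, 49.9, 269.8, 24.8 and 22.2 CPM in sorted IL33KO libraries and 51.6, 60.0, 54.9, 16.8 and 13.0 CPM in sorted WT libraries. In bulk tumour it had 1.62, 1.74, 1.56, 3.86 and 6.57 CPM in IL33KO libraries and 2.40, 3.08, 2.89, 1.97 and 2.91 CPM in WT libraries. Every sorted library lay above every bulk library, and sorted IL33KO 3 was far above the rest. The fold was 19.6 (log2 fold change 4.29, SE 0.53, adjusted p = 6.85e-07), and 12.4 without that library. Mmp13 is the main interstitial collagenase of rodents. It had 141, 168, 422, 261 and 268 CPM in sorted IL33KO libraries and 221, 228, 338, 184 and 245 CPM in sorted WT libraries, against 54.3, 67.6, 83.1, 69.5 and 77.0 CPM in bulk IL33KO and 50.9, 60.7, 64.0, 46.5 and 164 CPM in bulk WT libraries. Bulk WT 5 reached the lower part of the sorted range, and the other 9 bulk libraries lay below it. Mmp13 was 3.36-fold higher in sorted leukocytes (log2 fold change 1.75, SE 0.23, adjusted p = 1.25e-06).

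The gelatinases, which cut denatured collagen and basement membrane collagen, differed from each other. Mmp9, carried by neutrophils and macrophages, had 440.4, 435, 1174, 729.9 and 434 CPM in sorted IL33KO libraries and 754, 715, 836, 453 and 904 CPM in sorted WT libraries. Mmp9 (ENSMUSG00000017737.2) lies at chr2:164940780-164955850, plus strand. Bulk tumour held 35.6, 50.2, 63.5, 32.0 and 41.9 CPM of it in IL33KO libraries and 37.5, 29.4, 40.9, 42.3 and 89.7 CPM in WT libraries. The compartments did not overlap, and Mmp9 was 14.8-fold higher in sorted leukocytes (log2 fold change 3.89, SE 0.25, adjusted p = 5.53e-11). Mmp2, the gelatinase typical of fibroblasts, averaged 71.7 ± 25.3 CPM in sorted IL33KO and 84.1 ± 11.2 CPM in sorted WT libraries, and 74.8 ± 20.6 CPM in bulk IL33KO and 46.8 ± 18.3 CPM in bulk WT libraries (SD, n = 5 each). Its sorted and bulk values overlapped, with a log2 fold change of 0.39 (SE 0.18, adjusted p = 0.0535). This is close to the threshold: without bulk WT 5 the log2 fold change was 0.53 (adjusted p = 0.00489), and among WT hosts alone it was 0.85 (adjusted p = 0.0062). Mmp2 also passed when sorted IL33KO 1, sorted IL33KO 3 or bulk IL33KO 4 was left out (adjusted p = 0.0398, 0.0153 and 0.0226), and under DESeq2 (0.0491), limma voom with weights (0.00154) and a replicate block (0.0213), whereas among IL33KO hosts alone its log2 fold change was -0.063 (adjusted p = 0.839).

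Mmp12, the elastase of macrophages, had 408, 672, 1419, 738 and 707 CPM in sorted IL33KO libraries and 508, 634, 1241, 616 and 691 CPM in sorted WT libraries. Bulk libraries had 94.2, 129, 112, 131 and 178 CPM in IL33KO and 84.5, 103, 99.0, 76.2 and 262 CPM in WT tumours. Both sorted libraries numbered 3 stood highest, bulk WT 5 was the highest of the bulk libraries, and the compartments did not overlap (6.01-fold higher, log2 fold change 2.59, SE 0.26, adjusted p = 3.07e-08). Mmp12 shares 157 exon bases with Mmp1b on the opposite strand, but Mmp1b had only 2 counts in all libraries together. Mmp19, known from macrophages and other cells and able to cut basement membrane proteins, had 30.5, 47.6, 61.4, 36.3 and 34.2 CPM in sorted IL33KO and 45.0, 40.9, 60.2, 41.3 and 41.2 CPM in sorted WT libraries, against 16.0, 11.7, 12.1, 23.1 and 14.4 CPM in bulk IL33KO and 9.18, 9.46, 17.9, 9.25 and 18.7 CPM in bulk WT libraries. It was 3.1-fold higher in sorted leukocytes with no overlap (log2 fold change 1.63, SE 0.18, adjusted p = 9.22e-08), and 789 of its exon bases are shared with Tmem198b on the opposite strand. Mmp27 was low throughout, at 0.626 to 1.18 CPM in sorted libraries and 0.156 to 0.549 CPM in bulk libraries, and still 3.01-fold higher in sorted ones (adjusted p = 6.97e-06).

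The membrane-type enzymes, which sit on the cell surface, went 3 ways. Mmp25, a membrane-anchored enzyme of leukocytes, had 32.8, 38.1, 84.9, 46.6 and 29.0 CPM in sorted IL33KO and 45.6, 31.6, 38.0, 20.3 and 52.7 CPM in sorted WT libraries. Mmp25 (ENSMUSG00000023903.7) lies at chr17:23628311-23645277, minus strand. In bulk tumour its values were 2.11, 1.78, 2.62, 2.27 and 2.94 CPM in IL33KO and 2.13, 1.31, 2.15, 2.09 and 3.36 CPM in WT libraries. No bulk library reached the lowest sorted one, and the fold was 18.3 (log2 fold change 4.20, SE 0.23, adjusted p = 7.47e-12). Mmp14, which activates pro-MMP2 at the cell surface, was nearly level: 308 ± 50.8 CPM in sorted IL33KO, 358 ± 63.0 CPM in sorted WT, 341 ± 63.1 CPM in bulk IL33KO and 300.4 ± 26.0 CPM in bulk WT libraries (SD, n = 5 each), with a log2 fold change of 0.054 (SE 0.10, adjusted p = 0.629). Mmp15, a membrane-type enzyme of epithelial cells, had 16.8, 13.5, 15.9, 15.2 and 22.5 CPM in sorted IL33KO and 8.48, 15.7, 11.9, 28.9 and 21.4 CPM in sorted WT libraries. Bulk tumour held 95.0, 60.6, 55.8, 90.3 and 37.7 CPM of it in IL33KO and 151, 116, 105, 174 and 57.2 CPM in WT libraries, all above the sorted range (5.32-fold lower in sorted libraries, log2 fold change -2.41, SE 0.24, adjusted p = 2.2e-08). Mmp17 had 1.35, 0.574, 0.641, 0.690 and 0.761 CPM in sorted IL33KO and 0.636, 0.279, 0.815, 0.582 and 0.643 CPM in sorted WT libraries, and 2.45, 1.53, 1.12, 2.29 and 1.18 CPM in bulk IL33KO and 0.661, 0.494, 1.43, 0.852 and 1.08 CPM in bulk WT libraries. Its ranges overlapped and it was 1.81-fold lower in sorted libraries (adjusted p = 0.00356); among WT hosts alone the log2 fold change was -0.61 (adjusted p = 0.121). Mmp24 was at most 1.36 CPM in any library and lower in sorted ones (log2 fold change -2.06, adjusted p = 0.00145), having passed the filter through bulk libraries only.

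**Figure D2:**
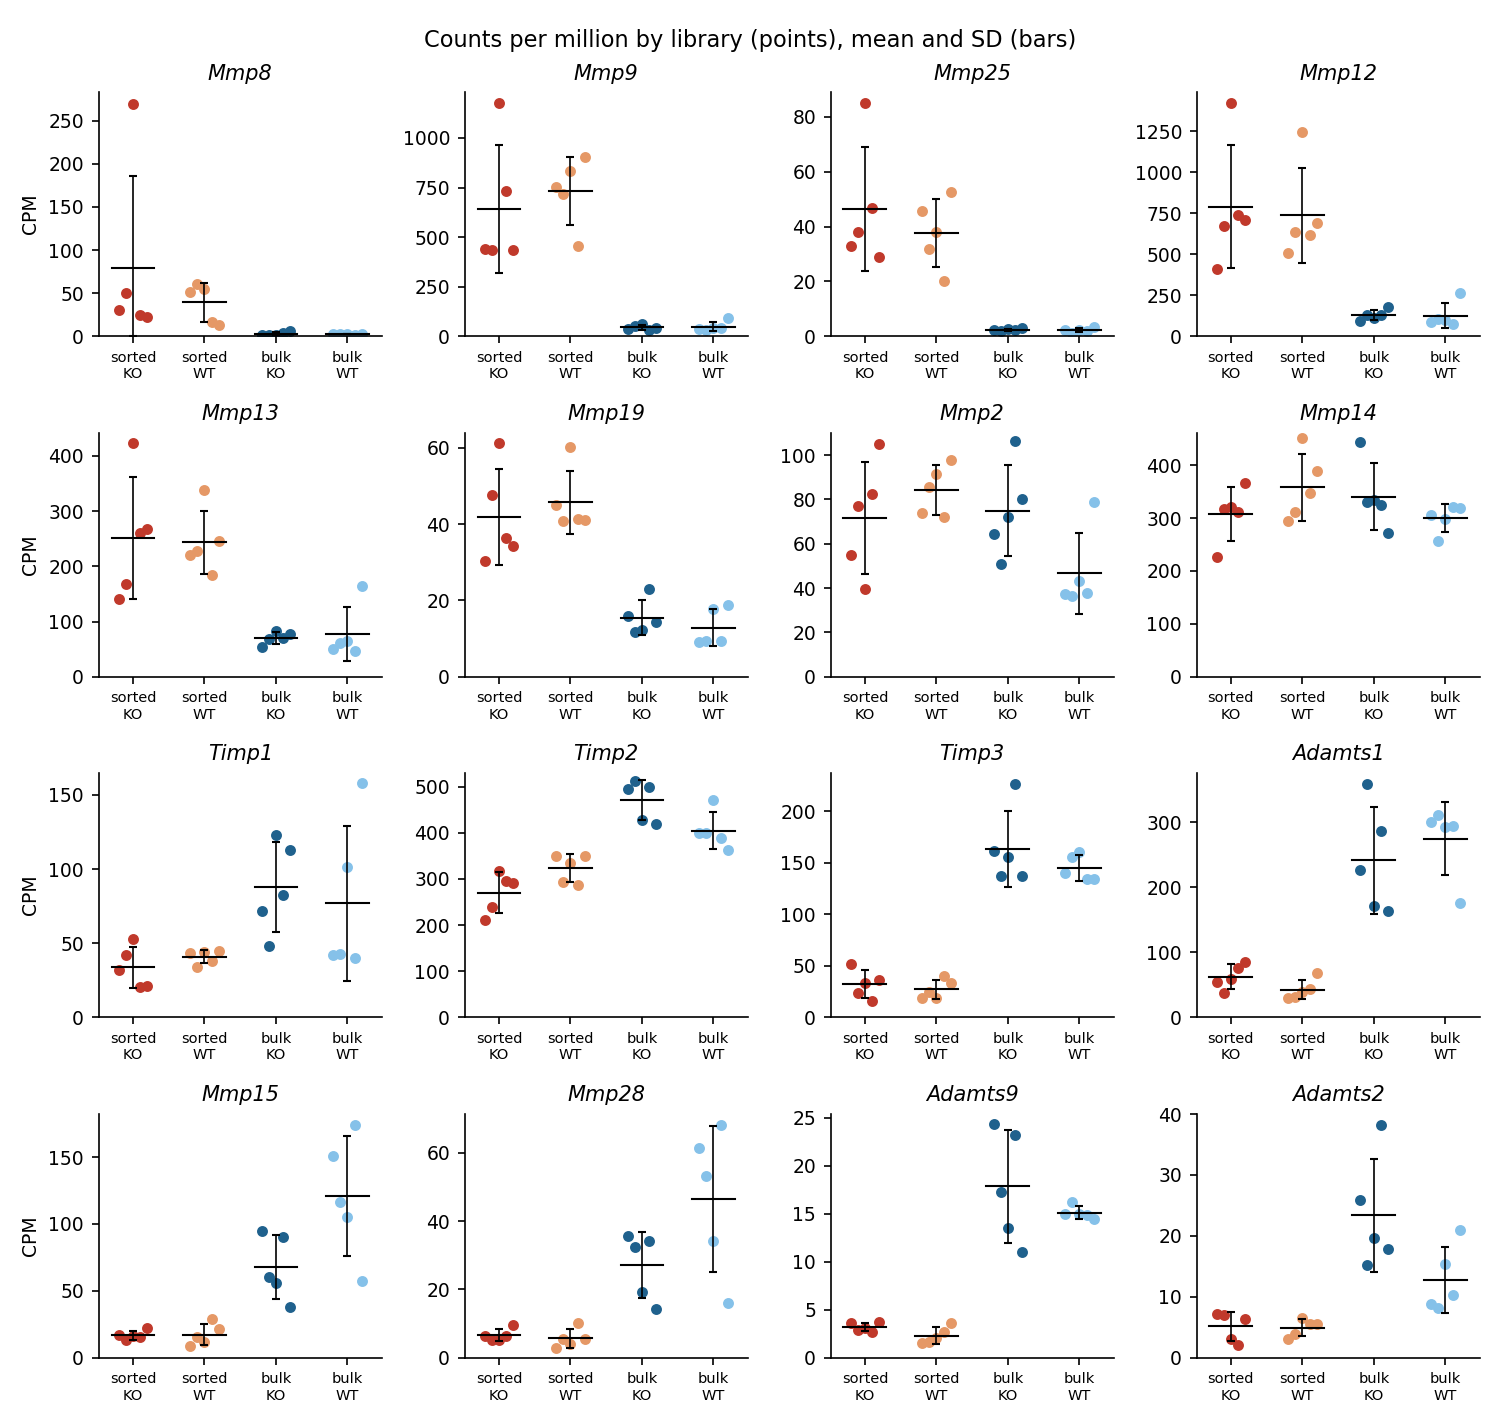
CPM of 16 members in every library (points, replicates 1 to 5 from left to right), with the group mean (horizontal line) and 1 SD (bars, stopped at 0 for Mmp8); KO stands for IL33KO. Mmp8, Mmp9, Mmp25, Mmp12 and Mmp19 separate sorted from bulk libraries upwards, Timp2, Timp3, Adamts1, Mmp15, Mmp28, Adamts9 and Adamts2 downwards, and Mmp2 and Mmp14 overlap.

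The stromelysins Mmp3 and Mmp10, which cut proteoglycans, fibronectin and laminin, were lower in sorted leukocytes. The stromelysin-like Mmp11 and matrilysin were lower there too. Mmp11, best known from tumour fibroblasts, averaged 6.11 ± 1.63 CPM in sorted IL33KO and 4.40 ± 1.42 CPM in sorted WT libraries, against 26.0 ± 5.38 CPM in bulk IL33KO and 21.8 ± 2.96 CPM in bulk WT libraries (SD, n = 5 each; log2 fold change -2.20, SE 0.15, adjusted p = 1.84e-10). Mmp3 averaged 2.15 ± 1.03 and 1.59 ± 0.527 CPM in sorted IL33KO and sorted WT libraries, against 6.73 ± 2.47 and 4.54 ± 4.40 CPM in bulk IL33KO and bulk WT libraries (log2 fold change -1.58, SE 0.33, adjusted p = 0.000253). Mmp10 averaged 1.26 ± 0.876 and 1.08 ± 0.493 CPM in sorted IL33KO and sorted WT libraries, and 2.63 ± 1.04 and 2.65 ± 2.47 CPM in bulk IL33KO and bulk WT libraries (log2 fold change -1.18, SE 0.36, adjusted p = 0.00598); among IL33KO hosts alone it did not pass (adjusted p = 0.0737). For Mmp11 the compartments did not overlap, and for Mmp3 and Mmp10 they did. Mmp7, the matrilysin of epithelial cells, averaged 8.89 ± 2.78 CPM in sorted IL33KO and 10.3 ± 4.57 CPM in sorted WT libraries, against 38.8 ± 24.4 CPM in bulk IL33KO and 45.9 ± 17.8 CPM in bulk WT libraries (log2 fold change -2.13, SE 0.33, adjusted p = 7.77e-06). Bulk IL33KO 1, with 9.93 CPM, lay within the sorted range and the other 9 bulk libraries lay above it. Mmp28, known from epithelia and other tissues, had 6.29, 5.21, 5.29, 6.33 and 9.55 CPM in sorted IL33KO and 2.84, 5.62, 4.17, 10.3 and 5.49 CPM in sorted WT libraries. In bulk tumour it had 35.7, 32.3, 19.4, 34.1 and 14.2 CPM in IL33KO and 61.4, 53.2, 34.2, 68.3 and 15.9 CPM in WT libraries, with no overlap (5.83-fold lower in sorted libraries, log2 fold change -2.54, SE 0.27, adjusted p = 7.23e-08). Mmp23 averaged 1.71 ± 0.813 and 1.83 ± 0.567 CPM in sorted IL33KO and sorted WT libraries, against 7.12 ± 1.71 and 4.19 ± 2.22 CPM in bulk IL33KO and bulk WT libraries (log2 fold change -1.62, SE 0.27, adjusted p = 2.29e-05).

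The ADAMTS genes that cut the large proteoglycans aggrecan, versican and brevican were lower in sorted leukocytes in every case tested: 6 of the 6 tested passed, and Adamts20 had too few counts. Of the 6, Adamts8 had passed the filter only through bulk libraries, so that its lower value was fixed beforehand. Adamts1 had 53.6, 36.9, 58.8, 76.1 and 85.3 CPM in sorted IL33KO and 30.2, 31.6, 39.3, 43.2 and 67.4 CPM in sorted WT libraries. Adamts1 (ENSMUSG00000022893.14) lies at chr16:85793827-85803113, minus strand. Bulk tumour held 227, 359, 172, 286 and 164 CPM in IL33KO and 299.6, 310.4, 293, 295 and 176 CPM in WT libraries. All bulk libraries lay above all sorted ones, and Adamts1 was 5.02-fold lower in sorted leukocytes (log2 fold change -2.33, SE 0.19, adjusted p = 2e-09). Adamts9 had 3.61, 2.87, 3.11, 2.70 and 3.67 CPM in sorted IL33KO and 1.55, 1.61, 2.05, 2.65 and 3.66 CPM in sorted WT libraries, against 24.3, 17.2, 13.5, 23.2 and 11.0 CPM in bulk IL33KO and 15.0, 16.2, 15.0, 14.9 and 14.4 CPM in bulk WT libraries. Its compartments did not overlap either (6.05-fold lower, log2 fold change -2.60, SE 0.17, adjusted p = 6.38e-11), and 1381 of its exon bases are shared with A730049H05Rik on the opposite strand. Adamts4, an aggrecanase, averaged 2.13 ± 0.739 and 1.81 ± 0.680 CPM in sorted IL33KO and sorted WT libraries, against 9.42 ± 2.73 and 7.59 ± 2.35 CPM in bulk IL33KO and bulk WT libraries (log2 fold change -2.11, SE 0.22, adjusted p = 4.19e-08). Adamts15 averaged 5.51 ± 1.17 and 4.89 ± 1.24 CPM in sorted IL33KO and sorted WT libraries, against 18.9 ± 8.34 and 28.3 ± 9.32 CPM in bulk IL33KO and bulk WT libraries (log2 fold change -2.16, SE 0.21, adjusted p = 2.62e-08). Adamts5, the other main aggrecanase, averaged 1.68 ± 0.491 and 1.49 ± 0.463 CPM in sorted IL33KO and sorted WT libraries, against 6.49 ± 2.75 and 3.21 ± 2.21 CPM in bulk IL33KO and bulk WT libraries (log2 fold change -1.52, SE 0.28, adjusted p = 6.69e-05). Adamts8 stayed below 1 CPM everywhere (log2 fold change -1.63, adjusted p = 0.00172), and among IL33KO hosts alone it did not pass.

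The procollagen N-propeptidases, which trim new collagen so that fibrils can form, did not move together. Adamts14 had 4.18, 4.47, 2.33, 5.01 and 5.48 CPM in sorted IL33KO and 5.30, 4.59, 3.73, 3.81 and 3.09 CPM in sorted WT libraries, against 4.19, 1.95, 1.95, 5.82 and 2.83 CPM in bulk IL33KO and 1.14, 0.959, 2.85, 1.32 and 3.28 CPM in bulk WT libraries. Ranges overlapped, with bulk IL33KO 4 highest of all 20 libraries, and Adamts14 was 1.66-fold higher in sorted libraries (log2 fold change 0.73, SE 0.26, adjusted p = 0.0149). Among IL33KO hosts alone it did not pass (log2 fold change 0.36, adjusted p = 0.398). Adamts2 had 7.19, 6.98, 3.13, 2.03 and 6.34 CPM in sorted IL33KO and 3.14, 3.93, 6.58, 5.56 and 5.46 CPM in sorted WT libraries. Bulk values of Adamts2 were 26.0, 15.2, 19.6, 38.3 and 17.9 CPM in IL33KO and 8.77, 8.17, 15.4, 10.3 and 21.0 CPM in WT libraries, all above the sorted range (3.43-fold lower in sorted libraries, log2 fold change -1.78, SE 0.25, adjusted p = 3.22e-06). Adamts3, which passed the filter only through bulk libraries and so had to be lower, averaged 0.233 ± 0.213 and 0.143 ± 0.0863 CPM in sorted IL33KO and sorted WT libraries, against 1.17 ± 1.58 and 0.347 ± 0.249 CPM in bulk IL33KO and bulk WT libraries. It was 3.48-fold lower in sorted libraries (adjusted p = 0.00589) and 2.19-fold lower without bulk IL33KO 4, and among WT hosts alone it did not pass (adjusted p = 0.163).

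Adamts7 and Adamts12, which cut cartilage oligomeric matrix protein, were both lower in sorted leukocytes with no overlap. Adamts12 had 1.47, 0.808, 1.03, 0.731 and 1.24 CPM in sorted IL33KO and 0.339, 0.429, 0.702, 0.776 and 0.686 CPM in sorted WT libraries, against 7.47, 3.96, 4.86, 5.82 and 3.38 CPM in bulk IL33KO and 5.20, 5.73, 2.23, 5.08 and 3.69 CPM in bulk WT libraries (6-fold lower, log2 fold change -2.58, SE 0.22, adjusted p = 2.52e-09). Adamts7 had 2.52, 1.25, 0.961, 0.954 and 2.00 CPM in sorted IL33KO and 0.742, 1.09, 1.00, 1.31 and 1.74 CPM in sorted WT libraries, against 11.9, 5.98, 6.41, 8.5 and 4.81 CPM in bulk IL33KO and 5.79, 4.37, 5.92, 6.68 and 7.28 CPM in bulk WT libraries (4.99-fold lower, log2 fold change -2.32, SE 0.22, adjusted p = 1.24e-08). Of the remaining ADAMTS genes, Adamts6, related to the microfibril-binding Adamts10, was the other member higher in sorted libraries. Adamts6 had 4.00, 3.44, 1.78, 3.92 and 3.34 CPM in sorted IL33KO and 2.92, 2.25, 1.57, 2.54 and 1.89 CPM in sorted WT libraries, against 2.32, 2.06, 1.05, 2.53 and 1.85 CPM in bulk IL33KO and 1.36, 1.57, 0.980, 1.46 and 1.67 CPM in bulk WT libraries. The ranges overlapped (1.63-fold higher, log2 fold change 0.71, SE 0.18, adjusted p = 0.00154). Adamts10 averaged 13.9 ± 7.51 and 13.3 ± 3.57 CPM in sorted IL33KO and sorted WT libraries, and 14.0 ± 2.42 and 10.8 ± 3.59 CPM in bulk IL33KO and bulk WT libraries, and did not pass (log2 fold change 0.15, SE 0.21, adjusted p = 0.542).

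Adamts16, Adamts17 and Adamts19, whose matrix substrates are less well known, passed the filter through bulk libraries alone, so lower sorted values were built in. Adamts16 had 0.293, 0.404, 0.297, 0.102 and 0.232 CPM in sorted IL33KO and 0.0636, 0.0858, 0.114, 0.129 and 0.150 CPM in sorted WT libraries, against 0.871, 0.557, 0.859, 3.38 and 0.865 CPM in bulk IL33KO and 0.194, 0.198, 0.400, 0.261 and 0.568 CPM in bulk WT libraries (log2 fold change -1.93, adjusted p = 6.22e-05). Adamts19 had 0.0586, 0.0638, 0.0686, 0.0609 and 0.0662 CPM in sorted IL33KO and 0.0636, 0.0215, 0.0948, 0.0862 and 0.150 CPM in sorted WT libraries, against 0.294, 0.376, 0.172, 5.45 and 0.110 CPM in bulk IL33KO and 0.0518, 0.0423, 2.26, 0.0137 and 0.284 CPM in bulk WT libraries. Only bulk IL33KO 4 and bulk WT 3 exceeded 1 CPM of Adamts19. The 11.1-fold difference (adjusted p = 0.00184) was 4.79-fold without bulk IL33KO 4, and it did not pass among WT hosts alone (adjusted p = 0.0684). Adamts17 was at most 0.283 CPM in any library (log2 fold change -0.84, adjusted p = 0.0386), and it no longer passed in 10 of the 20 fits that left out 1 library.

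Of the inhibitors, Timp1, Timp2 and Timp3 were lower in sorted leukocytes. Timp1 (ENSMUSG00000001131.11) lies at chrX:20870166-20874735, plus strand, Timp2 (ENSMUSG00000017466.9) lies at chr11:118301069-118355740, minus strand and Timp3 (ENSMUSG00000020044.13) lies at chr10:86300372-86349506, plus strand. Timp1, the inducible inhibitor, had 31.6, 41.9, 53.1, 20.6 and 21.4 CPM in sorted IL33KO and 43.4, 34.2, 43.8, 38.1 and 44.4 CPM in sorted WT libraries. In bulk tumour its values were 71.5, 48.4, 123, 82.7 and 113 CPM in IL33KO and 42.2, 42.4, 102, 39.8 and 158 CPM in WT libraries. The ranges met at the lower bulk values (2.21-fold lower in sorted libraries, log2 fold change -1.15, SE 0.26, adjusted p = 0.000577). Timp2, which also takes part in the activation of pro-MMP2 by MMP14, had 212, 239, 316, 295 and 291 CPM in sorted IL33KO and 350.0, 294, 335, 286 and 349 CPM in sorted WT libraries, against 494, 513, 428, 499 and 419 CPM in bulk IL33KO and 399.9, 399.6, 470.0, 389 and 364 CPM in bulk WT libraries. Its difference was small and without overlap (1.48-fold lower, log2 fold change -0.56, SE 0.078, adjusted p = 2.3e-06). Timp3, which binds to the matrix and also inhibits ADAM and ADAMTS proteases, had 51.4, 23.2, 33.7, 15.7 and 36.2 CPM in sorted IL33KO and 18.7, 24.1, 18.6, 40.3 and 33.1 CPM in sorted WT libraries, against 161, 137, 156, 227 and 138 CPM in bulk IL33KO and 140.4, 156, 160.2, 134 and 135 CPM in bulk WT libraries. No sorted library reached the bulk range (5.24-fold lower, log2 fold change -2.39, SE 0.19, adjusted p = 1.14e-09); 1733 of the exon bases of Timp3 are shared with Syn3 on the opposite strand. Timp4 was at the edge of detection, with 0.0586, 0.149, 0.458, 0 and 0.199 CPM in sorted IL33KO, 0, 0.172, 0.0190, 0.108 and 0.171 CPM in sorted WT, 0.0762, 0.0836, 0.0156, 0.0552 and 0.0412 CPM in bulk IL33KO and 0.0778, 0.198, 0.129, 0.151 and 0.0387 CPM in bulk WT libraries, and was not tested.

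Of the Mmp genes, 10 stand side by side on chromosome 9 (GRCm38) within 427 kb, from Mmp13 to Mmp7. Neighbours differed in direction: in sorted leukocytes Mmp13, Mmp12, Mmp8 and Mmp27 were higher and Mmp3, Mmp10 and Mmp7 lower than in bulk tumour, while Mmp1b, Mmp1a and Mmp20 had too few counts to be tested. AP-1, the Fos and Jun transcription factor, is a textbook regulator of several of these genes, so its letters TGACTCA and TGAGTCA, which are each other's reverse complement, were searched on both strands in the 250 bases before each RefSeq start (GRCm38.p6). They occurred before 7 of the 10 genes of the cluster (Mmp13, Mmp12, Mmp1b, Mmp3, Mmp1a, Mmp10 and Mmp7), and not in the windows of Mmp8, Mmp27 and Mmp20. Of all genes with a RefSeq window, 5.16% held these letters in at least 1 of their windows (1395 of 27025). Of 32 members with a window, 7 did (21.9%); those 7 were among the 18 Mmp genes (38.9%), and none was among 10 Adamts or 4 Timp genes. The letters began 35 bases before the start in Mmp13, 44 in Mmp12, 46 in Mmp3 and 63 in both Mmp10 and Mmp7. Mmp12 and Mmp7 have a pair of annotated starts each, and the letters lie before 1 of them. In Mmp12 this is the start farther inside the gene, and the window before its outer start (chr9:7344147-7344396) held no such letters. In Mmp7 it is the outer start. The 100 bases before the start are printed for the tested genes of the cluster, to show the letters (capitals) in genes of either direction and 2 higher genes without them.
Mmp13, chr9:7272414-7272513, plus strand: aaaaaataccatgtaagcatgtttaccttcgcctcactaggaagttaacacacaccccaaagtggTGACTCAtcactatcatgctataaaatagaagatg
Mmp12, chr9:7347274-7347373, plus strand: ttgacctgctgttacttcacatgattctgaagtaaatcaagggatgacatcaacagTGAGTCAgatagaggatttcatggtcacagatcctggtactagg
Mmp8, chr9:7558329-7558428, plus strand: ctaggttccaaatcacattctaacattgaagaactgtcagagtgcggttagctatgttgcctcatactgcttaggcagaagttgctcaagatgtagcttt
Mmp27, chr9:7571296-7571395, plus strand: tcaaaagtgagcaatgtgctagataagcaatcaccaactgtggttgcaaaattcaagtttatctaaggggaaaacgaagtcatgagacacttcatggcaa
Mmp3, chr9:7445722-7445821, plus strand: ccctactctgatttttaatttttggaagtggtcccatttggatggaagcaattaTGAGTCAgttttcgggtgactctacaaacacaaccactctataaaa
Mmp10, chr9:7502242-7502341, plus strand: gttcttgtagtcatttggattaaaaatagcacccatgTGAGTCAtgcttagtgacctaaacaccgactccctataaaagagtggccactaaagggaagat
Mmp7, chr9:7691990-7692089, plus strand: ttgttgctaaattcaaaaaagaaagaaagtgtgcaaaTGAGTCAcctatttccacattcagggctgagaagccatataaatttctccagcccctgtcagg
The letters were thus found before genes that were higher (Mmp13 and Mmp12) and before genes that were lower (Mmp3, Mmp10 and Mmp7) in sorted leukocytes. A match is only a match of letters, and binding was not measured.

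**Figure D3:**
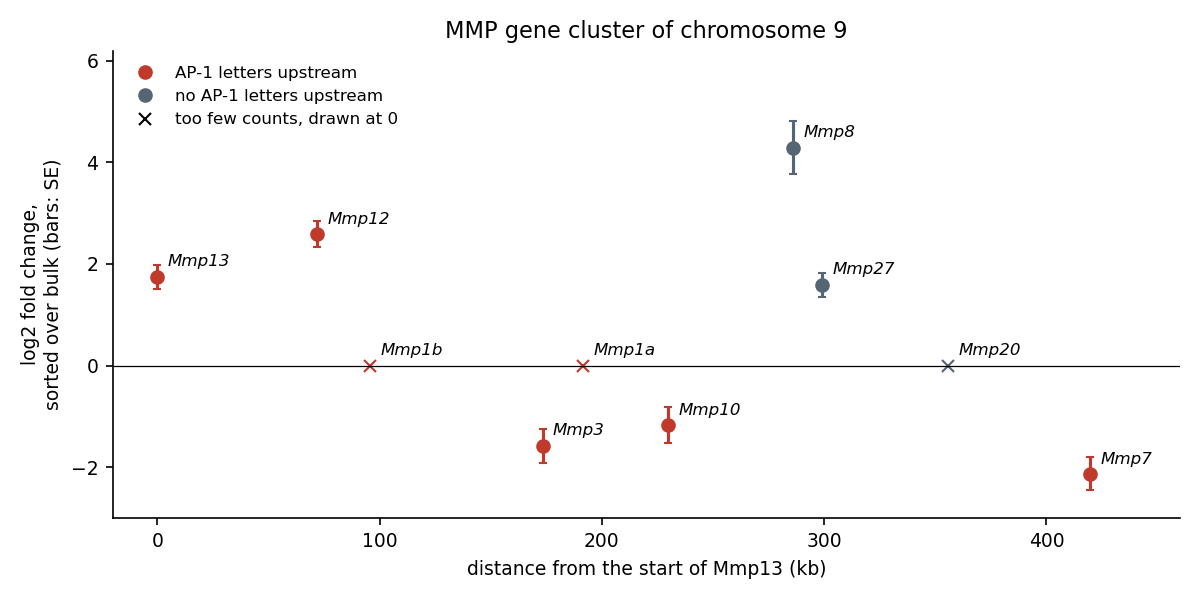
Log2 fold change, sorted over bulk (bars are 1 SE), of the 10 Mmp genes of chromosome 9 against the distance of each gene from Mmp13 in kb. Crosses at 0 mark the 3 genes with too few counts. Red genes have AP-1 letters in the 250 bases before an annotated start (for Mmp12 only the inner one) and lie both above and below 0.

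Levels of different members can be compared only per length, and CPM was therefore divided by the kb of merged exons. In sorted leukocytes the order began with Mmp9 (182 CPM per kb in IL33KO and 207 in WT libraries), Mmp12 (109 and 102), Mmp13 (94.3 and 90.9) and Timp2 (69.4 and 82.9). Bulk tumour began with Timp2 (121 CPM per kb in IL33KO and 104 in WT libraries) and Timp1 (98.7 and 86.5), followed by Mmp14 (57.1 and 50.4) and Adamts1 (45.5 and 51.8). In bulk WT libraries Adamts1 came before Mmp14. Each of the first 5 members overlapped with the next one in the order over the 5 libraries of its group, in all 4 groups, so the order of neighbours is not firm; Mmp9 had 123 to 332 CPM per kb in sorted IL33KO libraries, for example, and Mmp12 had 56.4 to 196 CPM per kb. Summed over the family, Mmp genes gave 337 to 916 CPM per kb in sorted IL33KO and 408 to 706 in sorted WT libraries, against 188 to 247 in bulk IL33KO and 189 to 316 in bulk WT libraries. Timp genes gave 96.2 to 145 CPM per kb in sorted IL33KO and 117 to 144 in sorted WT libraries, against 203 to 267 in bulk IL33KO and 161 to 288 in bulk WT libraries. Adamts genes were the least abundant, at 11.9 to 23.5 CPM per kb in sorted IL33KO and 9.91 to 17.2 in sorted WT libraries, against 41.1 to 79.4 in bulk IL33KO and 44.9 to 67.3 in bulk WT libraries. For each family the sums of the 10 sorted libraries and the 10 bulk libraries did not overlap. Mmp9 was the largest part of the Mmp sum in every sorted library, while Mmp14 or Mmp7 was the largest part in bulk libraries; Adamts1 led its family in all 20 libraries.

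**Figure D4:**
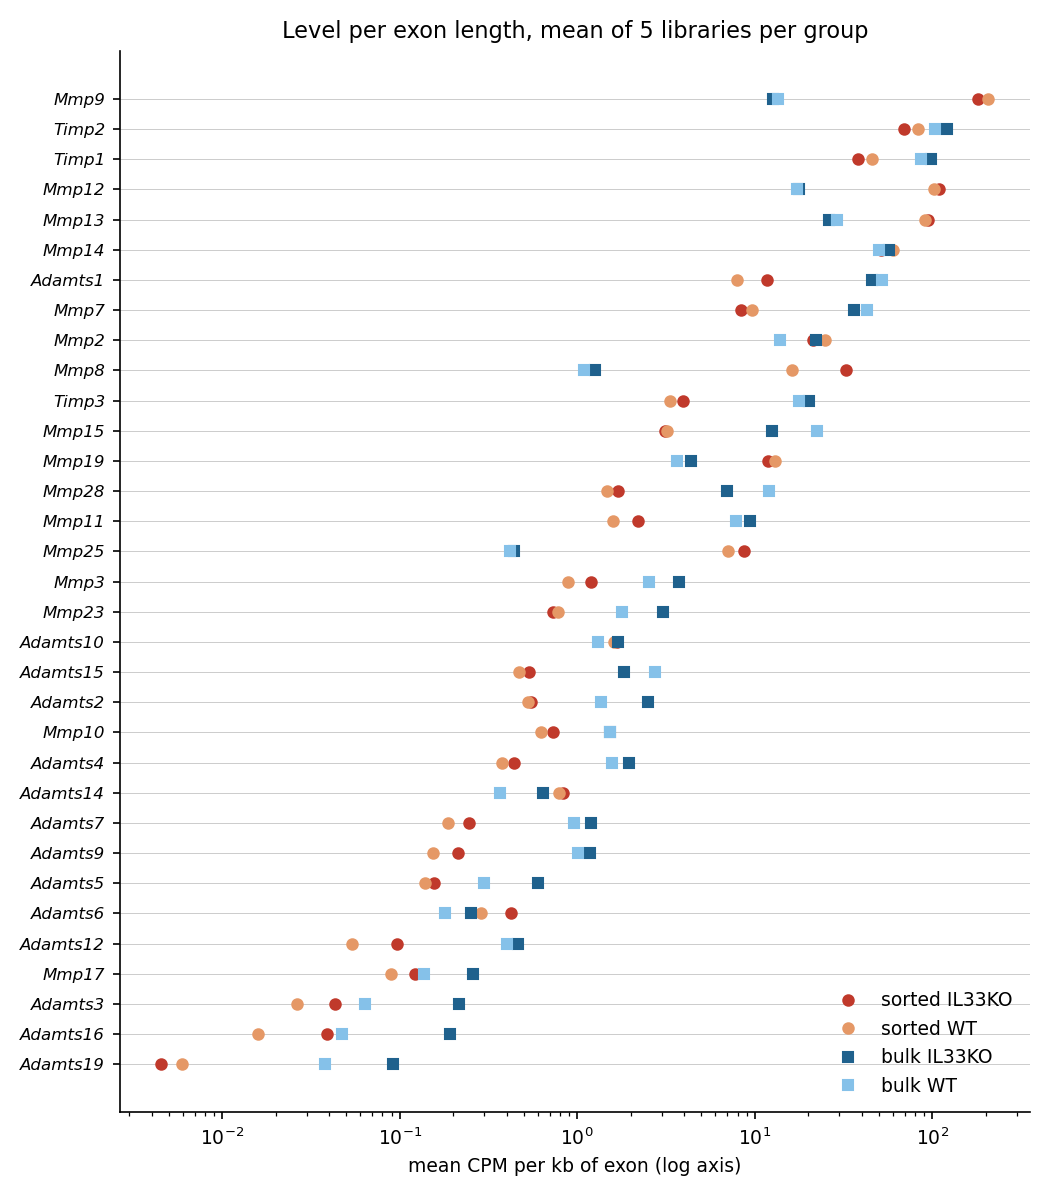
Mean CPM per kb of exon (log axis, n = 5 libraries per group) of the 33 members with at least 1 CPM in a group; circles are sorted and squares are bulk groups. Mmp9, Mmp12 and Mmp13 lead in sorted groups, and Timp2 and Timp1 in bulk groups.

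Host genotype was compared within each compartment. In bulk tumour no member passed in libraries labelled IL33KO against WT libraries: 0 of 37 tested had an adjusted p under 0.05 by edgeR, as for all 17258 genes tested (0%). At an unadjusted p under 0.05 stood 9 members, 8 with a positive and 1 with a negative log2 fold change, a share to be read against 6.36% of all genes tested. Of the 37, 29 had a positive and 8 a negative log2 fold change (IL33KO over WT), with a median of 0.24, against 0.008 for all genes tested. IL33KO and WT values overlapped for every member, where 0.661% of all genes tested did not overlap. limma voom with sample quality weights passed 17 members, 15 higher and 2 lower (Mmp15 and Mmp28), in a fit that passed 19.5% of all genes tested (11.1% higher and 8.41% lower); DESeq2 passed 0 members and 0.29% of all genes.

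Adamts16 had the smallest p in bulk tumour. With the values given above, all 5 IL33KO libraries lay above the WT median and bulk IL33KO 4 far above the others, at 3.38 CPM (log2 fold change 1.99, SE 0.54, p = 0.00346, adjusted p = 0.724 by edgeR; exact permutation p = 0.0159). Without that library its log2 fold change was 1.27 (2.41-fold). Adamts2, which trims procollagen, followed (log2 fold change 0.86, SE 0.31, adjusted p = 0.724; exact permutation p = 0.0556). For Adamts2 the 5 IL33KO libraries had 15.2 to 38.3 CPM and the 5 WT libraries 8.17 to 21.0 CPM, so the ranges overlapped. Mmp15 was the member below WT, at 37.7 to 95.0 CPM in IL33KO libraries and 57.2 to 174 CPM in WT libraries (log2 fold change -0.85, SE 0.31, adjusted p = 0.724; exact permutation p = 0.0476). Mmp17 had 1.13 to 2.45 CPM in IL33KO libraries and 0.494 to 1.43 CPM in WT libraries (log2 fold change 0.91, SE 0.33, adjusted p = 0.724; exact permutation p = 0.0317). The others with an unadjusted p under 0.05 were Mmp2 (log2 fold change 0.67), Adamts3 (1.74), Mmp23 (0.75), Adamts5 (1.00) and Timp2 (0.21), each with an adjusted p of 0.724 by edgeR. Without bulk IL33KO 4 the log2 fold change of Adamts3 was 0.42 (1.34-fold). All tests were two-sided, and the smallest exact p that 5 against 5 libraries allow is 0.00794.

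Some libraries weighed on these bulk values. Bulk WT 5 was the highest bulk library for 8 of the 33 members above 1 CPM (Timp1, Mmp9, Mmp7, Mmp25, Mmp3, Mmp10, Mmp12 and Mmp13), and bulk IL33KO 4 for 11, among them Mmp2, Mmp23, Adamts2, Adamts3, Adamts5 and Adamts16. Without bulk WT 5, 17 of the 37 members tested had an unadjusted p under 0.05. Still none passed, in a refit where 19 of 17324 genes did. The smallest adjusted p was 0.0667, for Mmp2 (log2 fold change 0.94). Without bulk IL33KO 4, 2 members had an unadjusted p under 0.05, and 0 of 17408 genes passed. The share of all genes at an unadjusted p under 0.05 was not counted in these refits. The counts of members therefore cannot be set against it. Beside these values stood the fibroblast markers: 9 of 9 had a positive log2 fold change (median 0.95), none passed, and their summed CPM was 1284 to 4838 in IL33KO and 979 to 2223 in WT libraries. For mesothelial markers 6 of 6 were positive (median 1.58), with sums of 375 to 580 CPM in IL33KO and 351 to 457 CPM in WT libraries. Leukocyte markers were positive as well, none passing: 6 of 6 pan-leukocyte genes (median 0.29; sums of 481 to 967 CPM in IL33KO and 363 to 916 CPM in WT libraries) and 9 of 9 macrophage markers (median 0.24; 2012 to 2620 CPM in IL33KO and 1046 to 3391 CPM in WT libraries). T cell markers were positive for 5 of 5 genes (median 0.10), B cell markers for 4 of 4 (median 1.28), neutrophil markers for 4 of 6 (median 0.12) and endothelial markers for 6 of 6 (median 0.36), and acinar genes were negative for 6 of 6 (median -2.04). Immature neutrophil granule genes were positive for 6 of 8 (median 0.91), with sums of 136 to 969 CPM in IL33KO and 396 to 748 CPM in WT libraries. Of skeletal muscle genes, 3 of 3 tested were positive (median 1.21). None of these genes passed. For epithelial markers 2 of 6 were positive (median -0.12), with sums of 6121 to 8907 CPM in IL33KO and 6909 to 8964 CPM in WT libraries. The part of these markers in the values of the members was not tested.

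**Figure D5:**
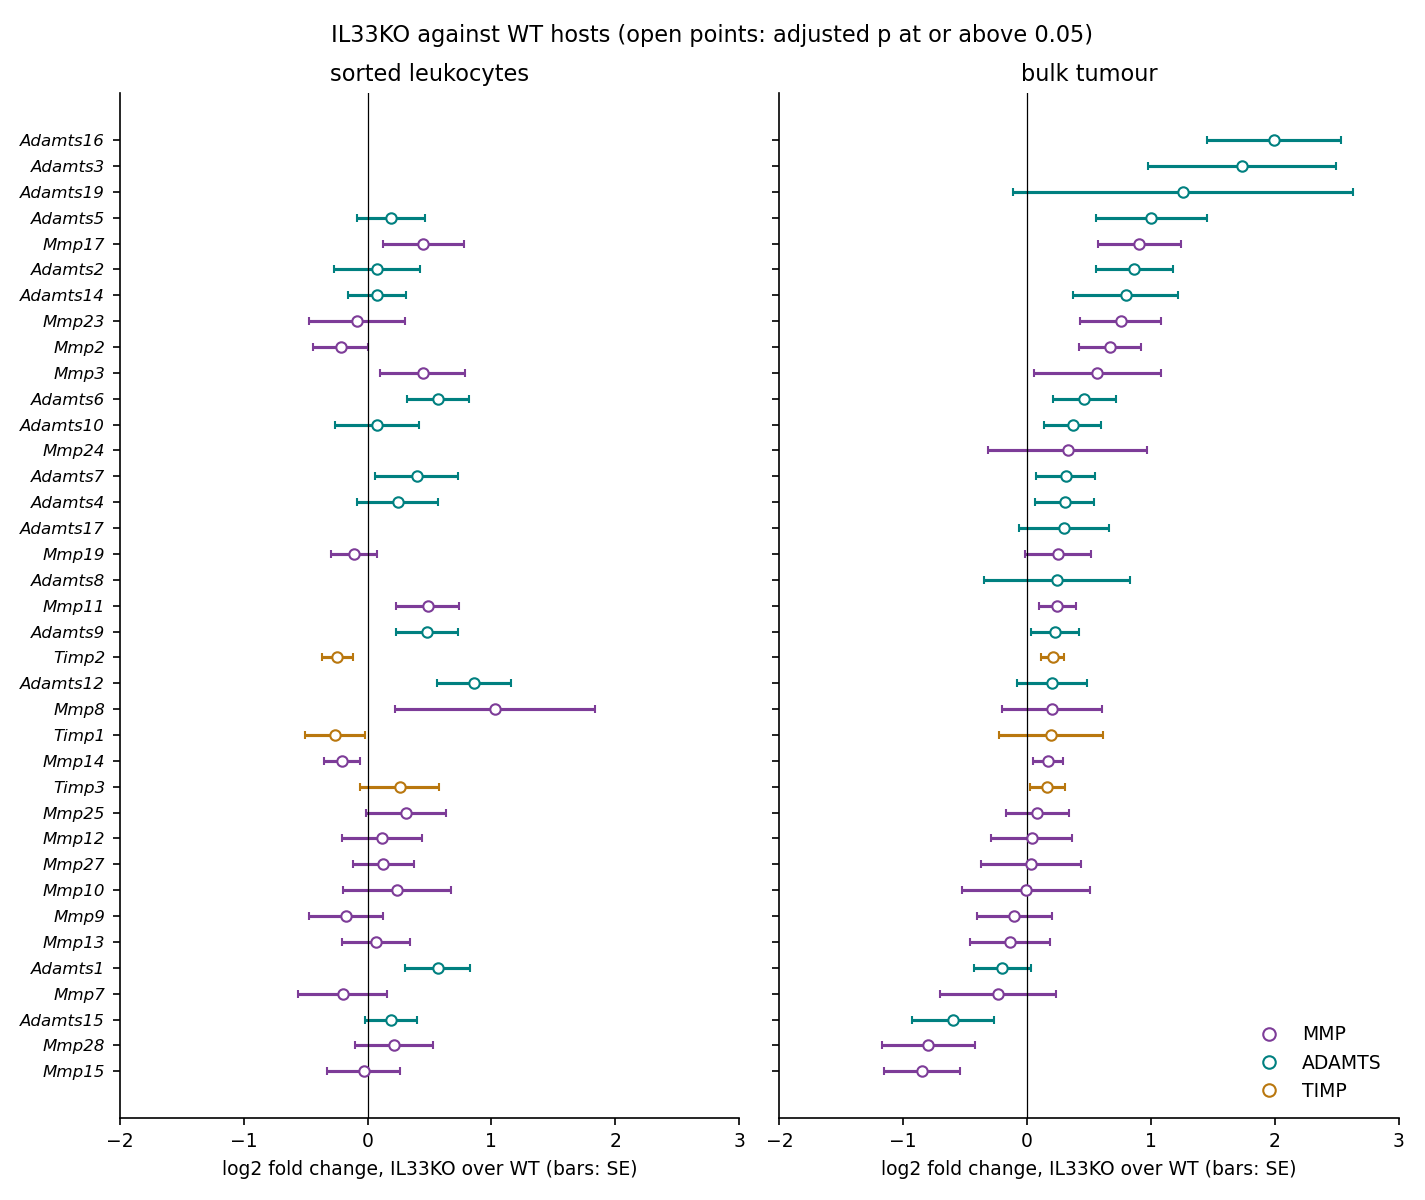
Log2 fold change, IL33KO over WT (points; bars are 1 SE), of the members tested in sorted leukocytes (left, 31 members) and bulk tumour (right, 37 members), in the order of the bulk values. Every point is open because no adjusted p was under 0.05; in bulk tumour 29 points lie right of 0 and Mmp15 lies farthest to the left.

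In sorted leukocytes, too, no member passed between genotypes: 0 of 31 tested by edgeR, where 0.012% of all genes tested passed (2 of 16731). An unadjusted p under 0.05 was reached by 2 members, against 12.9% of all genes tested, and DESeq2 and limma voom with weights passed 0 members, in fits that passed 3.38% and 2.39% of all genes tested. Log2 fold changes (IL33KO over WT) were positive for 22 and negative for 9 members, with a median of 0.19, against 0.021 for all genes tested; all 11 Adamts genes tested were positive (median 0.24). No member was free of overlap between genotypes, against 3.69% of all genes tested. Adamts12 came first: its 5 IL33KO libraries had 0.731 to 1.47 CPM and its 5 WT libraries 0.339 to 0.776 CPM, so that the groups overlapped only slightly (log2 fold change 0.86, SE 0.30, p = 0.0146, adjusted p = 0.282 by edgeR; exact permutation p = 0.0159). Adamts6 had 1.78 to 4.00 CPM in IL33KO and 1.57 to 2.92 CPM in WT libraries (log2 fold change 0.57, SE 0.25, adjusted p = 0.378; exact permutation p = 0.0873). Adamts1 had 36.9 to 85.3 CPM in IL33KO and 30.2 to 67.4 CPM in WT libraries (log2 fold change 0.57, adjusted p = 0.403; exact permutation p = 0.103). For Timp2 all 5 IL33KO libraries lay below the WT median, at 212 to 316 CPM against 286 to 350.0 CPM in WT libraries (log2 fold change -0.24, adjusted p = 0.446; exact permutation p = 0.0714). Mmp8 had the largest log2 fold change, 1.03 (SE 0.81, adjusted p = 0.636), which was -0.30 without sorted IL33KO 3. That library was the highest sorted one for 10 of the 33 members above 1 CPM, among them Mmp8, Mmp9, Mmp12, Mmp13, Mmp25 and Timp1. Beside these values, macrophage markers were negative for 9 of 9 genes (median -0.43). Their sums were 11390 to 17380 CPM in IL33KO and 18990 to 21890 CPM in WT libraries. All 8 immature neutrophil granule genes (median 1.14), all 6 acinar genes tested (2.17) and all 4 B cell markers (0.456) were positive. Of endothelial (0.19) and epithelial (0.135) markers 5 of 6 each were positive, and of neutrophil markers 3 of 6 (0.212). Fibroblast markers were positive for 5 of 9 (0.0261), T cell markers for 1 of 5 (-0.125) and mesothelial markers for 2 of 5 (-0.229). Of pan-leukocyte genes 2 of 6 were positive (-0.0794). None of these genes passed, and their part in the values of the members was not tested.

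The difference between the compartments in the genotype effect was tested directly. None of 37 members passed by edgeR (0 of 18145 genes, 0%), and 2 had an unadjusted p under 0.05, against 11.2% of all genes tested. Timp2 gave the smaller p: in sorted leukocytes all 5 IL33KO libraries lay below the WT median, and in bulk tumour all 5 lay above it (difference of log2 fold changes, sorted minus bulk, -0.47, SE 0.16, adjusted p = 0.445 by edgeR). For Mmp2 the difference was -0.91 (SE 0.36, adjusted p = 0.445 by edgeR). By limma voom with weights 7 members passed, all more negative in sorted leukocytes (Mmp2, Mmp19, Mmp23, Adamts5, Adamts14, Timp1 and Timp2), where 18.8% of all genes tested passed (10.3% more negative); DESeq2 passed 0 members and 0.022% of all genes. Without bulk WT 5, 8 members had an unadjusted p under 0.05, and the share of all genes at that p was not counted. None of the members passed, where 27 of 18299 genes did, and the smallest adjusted p was 0.0574, for Mmp2.

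Genes that work with these families were read from 4 lists. Of all genes tested, 37.4% were higher and 38% lower in sorted leukocytes, the shares to set beside the count of each list. Of 23 tested genes that activate or restrain metalloproteinases, 10 were higher and 11 lower in sorted leukocytes. In sorted libraries alone 21 genes of this list passed the filter on low counts, and in bulk libraries alone 22. The direction of genes that passed through 1 compartment only was built in. Plau, which makes the plasmin that activates several pro-MMPs, and its receptor Plaur were higher (log2 fold changes 1.42 and 1.34), as was the membrane inhibitor Reck (1.31). Plat, the tissue-type plasminogen activator, was lower (log2 fold change -2.29), as was Thbs2, which clears MMP2 (-3.54), and Furin, which cuts the propeptides of membrane-type enzymes, did not pass (0.16). Of 18 tested substrates, 2 were higher and 14 lower, with a median of -1.86; Col1a1 averaged 159 ± 96.6 CPM in sorted IL33KO and 165 ± 60.9 CPM in sorted WT libraries, against 936 ± 556 CPM in bulk IL33KO and 446 ± 189 CPM in bulk WT libraries (SD, n = 5 each). Of 7 ADAMTS-like genes, which lack the protease domain, 0 were higher and 5 lower. Of the 7, only 5 passed the filter on low counts in sorted libraries alone, and 7 in bulk libraries alone. For those that passed only through bulk libraries a lower sorted value was built in. Cytokines known to induce Mmp genes went the other way, with 6 of 8 higher: the log2 fold changes of Osm, Il1b, Il1a, Il6, Tnf and Tgfb1 were 7.21, 6.05, 4.76, 4.15, 2.96 and 1.91, while Tgfb2 (-1.86) and Tgfb3 (-1.82) were lower. No gene of the 4 lists passed by edgeR between genotypes in either compartment. In bulk tumour 17 of the 18 substrates had a positive log2 fold change, IL33KO over WT (median 0.61, against 0.008 for all genes tested), Tnc at 1.19 and Col1a1 at 1.06 among them; the list shares Col1a1, Col1a2, Col3a1 and Dcn with the fibroblast markers.

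Of the 13 members below 1 CPM in every group mean, 4 were tested (Mmp24, Mmp27, Adamts8 and Adamts17, given above). The other 9 were Mmp1a, Mmp1b, Mmp16, Mmp20, Mmp21, Adamts13, Adamts18, Adamts20 and Timp4, with at most 0.458 CPM in any library. Mmp21 had 0 counts in all libraries. Mmp1a had 1 count and Mmp1b 2 counts in all libraries together, and how reads that match both of these related genes were counted is not stated in the labels. Adamts13, the von Willebrand factor-cleaving protease made mainly in liver, had 57 counts in all.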

How the data were processed

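RNA of 20 libraries (4 groups of 5) was prepared by poly(A) selection with a stranded kit, per the labels' protocols. The authors deposited one table of raw gene counts over 46983 genes; the submitters' processing notes name HTSeq, Picard, DESeq and mm10, without versions. Neither aligner nor strand setting is named in the sources used here. Summary lines that name no gene (5 of them, 26.1 to 40.5% of a library) were left out. Without the strand setting, reads of overlapping genes cannot be told apart; 13 members share exon bases with a gene on the opposite strand.

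Counts were tested with edgeR 4.0.16 (filterByExpr, TMM, robust quasi-likelihood fit) in R 4.3.3, with Benjamini-Hochberg adjustment across every gene in the fit and calls made under 0.05. SE is the log2 fold change divided by the square root of F. CPM used TMM-scaled library sizes over all 20 libraries, and a level per kb used merged exons of GENCODE M21, which matched all 46 members. Single members were also tested by exact permutation of log2 CPM (prior count 2, 252 assignments). Alternatives were DESeq2 1.42.0, RLE size factors, limma 3.58.1 voom with sample quality weights, no low-count filter, a replicate block, each library left out, both sorted libraries numbered 3 left out, and each host genotype alone. Replicates of every group differed by more than sampling noise, so none was merged.

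Every member with at least 1 CPM in a group mean was named. Values in every library were given for the Timp genes, for the 8 largest differences in each direction between sorted and bulk among members named by the 1 CPM rule, and for the 4 smallest p-values in each genotype comparison. The members and lists were chosen with earlier results of these data known. Promoter sequences come from RefSeq (GRCm38.p6), where 32 of 46 members had an entry; protein sequences were not used here.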

Additional observations from a re-analysis of the deposited data

Results flagged for a closer look

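A library that stood far from the other 4 of its group (Dixon's test on log2 CPM, gap over range above 0.71) was found in 13 of 119 groups of 5. The values below are in CPM, where gaps at the high end look larger than on the log2 scale. The test's nominal rate of about 1 in 20 assumes independent groups with normal values. These groups share the same libraries, so the count cannot be set against that rate. Bulk WT 5 accounted for 7 of the 13. It was high for Mmp12 (262.2 CPM, others 76.2 to 102.5 CPM), Mmp13 (163.5 CPM, others 46.5 to 64.0 CPM), Mmp2 (79.0 CPM, others 36.2 to 43.4 CPM), Mmp3 (12.4 CPM, others 2.03 to 3.32 CPM) and Mmp10 (7.04 CPM, others 1.14 to 1.82 CPM). It was low for Adamts1 (175.5 CPM, others 293 to 310.4 CPM) and Adamts15 (12.2 CPM, others 29.6 to 35.5 CPM). The same library had the highest acinar sum of the bulk libraries, 8655 CPM.

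Bulk IL33KO 4 was high for Adamts3 (3.99 CPM, others 0.343 to 0.555 CPM), Adamts16 (3.38 CPM, others 0.557 to 0.871 CPM) and Adamts19 (5.45 CPM, others 0.110 to 0.376 CPM). Bulk IL33KO 1 was low for Adamts10, at 9.87 CPM against 14.1 to 15.9 CPM. Among sorted libraries, IL33KO 3 was low for Adamts6 (1.78 CPM, others 3.34 to 4.00 CPM) and WT 3 was high for Mmp19 (60.2 CPM, others 40.9 to 45.1 CPM). Mmp8 in sorted IL33KO 3 (269.8 CPM, others 22.2 to 49.9 CPM) stood far apart in CPM but was not flagged on the log2 scale. The part of these libraries' other features in the values was not tested.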

How the results depend on the processing

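Between sorted and bulk libraries, 34 members passed; leaving out 1 library gave 33 to 36 (73.3 to 76.4% of all genes), and the other settings gave 34 to 36 (54.6% of all genes with no filter, 73 to 82.9% otherwise), apart from each host genotype alone with 30 (IL33KO, 63%) and 31 (WT, 68%). Among the 33 members above 1 CPM, none that passed changed direction under the settings run. Of 923 refits of these members, 6 lost a call and 9 gained one, all 9 for Mmp2; the causes were not tested. Adamts19 was among the losses, with a log2 fold change of -1.79 (adjusted p = 0.0919) under limma voom with weights. Between genotypes, leaving out 1 library gave 0 to 0 members passing in sorted leukocytes, bulk tumour and the interaction. Limma voom with sample quality weights was the exception among the settings, with 17 members in bulk tumour and 7 in the interaction; the cause was not tested. The sign of members that did not pass changed in 23 of 493 refits in bulk tumour, 32 of 473 in sorted leukocytes and 59 of 824 for the interaction. Whether replicate numbers pair the samples is not stated, and the values cannot decide it. Correlations of same-numbered libraries, with group means taken out, ran from -0.261 to 0.59. The same number was the best match for some libraries and not for others. With a replicate block, 35 members passed between sorted and bulk, and 0 in each of the other comparisons. Depth limits the members near 3 counts, 0.0326 to 0.0686 CPM, such as Mmp1a, Mmp1b and Mmp21.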
